A study of Mus musculus with 7 samples.

Results

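MHC class II transcripts and the PD-1 ligand transcripts were followed through 7 genes, of 28719 gene symbols in the count tables of sorted mouse neutrophils. The genes were H2-Aa, H2-Ab1 and H2-Eb1, which encode class II chains, Cd74, which encodes the invariant chain, Cd274 and Pdcd1lg2, which encode the PD-1 ligands PD-L1 and PD-L2, and Cd80, which encodes a ligand of CD28 and CTLA-4. They were selected on their shares of cells and their levels in the 5 conditions of the inflammation library, so these values are given as a description, with no test. All 7 had a count in the inflammation library and in the healthy libraries of run 2. In run 1, 6 had a count in blood, 4 in bone marrow and 6 in spleen.

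Cells were sorted as live CD11b+ Ly6G+ neutrophils (PI-negative) from male C57BL/6J mice, and transcripts were counted as unique molecular identifiers (UMIs), which mark single captured molecules. In the inflammation library, hashtag antibodies marked 5 conditions that went through 1 droplet reaction together, each a pool of 3 mice by the study's methods. These were blood of healthy mice, blood and joint lavage of mice given 150 µL of K/BxN serum into the peritoneum on days 0 and 2 and killed on day 7, bronchoalveolar lavage 3 h after 25 ng of IL-1β into the nose, and peritoneal lavage 3 h after 25 ng of IL-1β into the peritoneum. The mice given serum or IL-1β were 8 weeks old, and the labels give no age for the healthy mice. K/BxN serum holds arthritogenic antibodies and transfers arthritis to recipient mice. The labels and the study's methods name different joints for the lavage (femorotibial and tibiotalar). Joint against IL-1β site is also day 7 against 3 h and serum against cytokine, and these cannot be told apart. Lavage of untreated joint, lung or peritoneum was not analysed here. In 6 further libraries, cells came from blood, bone marrow and spleen of untreated mice in 2 runs, with the tissues of a run from the same pool of 3 mice, by the study's methods at 6 weeks of age in the first and 8 weeks in the second.

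The inflammation library held 4856 cells, and 4852 of them carried a neutrophil class (GN) of the ImmGen reference in the deposited table, 509 from healthy blood, 814 from arthritic blood, 2857 from the joint, 380 from the lung and 292 from the peritoneum. Median UMIs per cell were 2527, 3580, 3531, 3681 and 3475.5 in that order, and the conditions summed to between 942688 and 10293966 UMIs, the most in the joint. The study's text gives more cells for the peritoneum than for the lung. The labels of the deposited table were used for all values here, and an exchange of these labels was not tested. S100a8 and S100a9, which encode the abundant cytosolic proteins of neutrophils, made up a median of 9.26% to 23.2% of a cell's UMIs, and 59 to 237 cells of a condition had less than 3%. All 12 B-cell markers together reached 210 and 125 CPM (UMIs of the genes scaled by all UMIs of the same cells) in healthy and arthritic blood, 51.7 in the joint, 24.2 in the lung and 28.6 in the peritoneum, nearly all of it Ighm. The 10 dendritic cell markers together stayed between 0.757 and 8.89 CPM. With 1 pool per condition there is no replicate check, so no test was made between these conditions. Intervals are exact 95% intervals (Clopper-Pearson for shares, Poisson for levels and folds), which cover counting error only.

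A class II molecule is a pair of an α and a β chain that carries peptides from the endosome to the cell surface for CD4 T cells. H2-Aa and H2-Ab1 encode the chains of I-A, and H2-Eb1 the β chain of I-E, whose α chain gene is not expressed in C57BL/6 mice. Invariant chain holds the groove shut until cathepsins cut it in the endosome, and the transactivator CIITA, acting through the RFX complex on an X box and Y box, turns these genes on together in B cells, dendritic cells and, after interferon-γ, in other cells. PD-L1 and PD-L2 bind PD-1 and restrain T cells, and PD-L1 can also bind CD80 on the same membrane. Neutrophils are known for phagocytosis rather than for presenting antigen, and PD-L1 is known to be induced by interferons in many cell types.

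The promoters of H2-Aa and H2-Eb1 are shown because both genes carry the paired boxes through which CIITA acts, whereas the windows of the PD-1 ligand genes and Cd80 do not. The 110 bases before the RefSeq start of transcription are given on the strand of the gene (GRCm38.p6, H2-Aa at chr17:34287824-34287933 on the minus strand, H2-Eb1 at chr17:34305757-34305866 on the plus strand). Capitals mark GCAAC, the core of the X box, and TGATTGG, the Y box.
H2-Aa: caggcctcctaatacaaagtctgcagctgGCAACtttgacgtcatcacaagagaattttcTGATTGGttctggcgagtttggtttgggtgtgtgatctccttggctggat
H2-Eb1: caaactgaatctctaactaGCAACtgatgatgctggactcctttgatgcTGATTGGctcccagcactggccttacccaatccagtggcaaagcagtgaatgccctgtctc
The boxes lie 26 bases apart in H2-Aa and 25 in H2-Eb1. TGATTGG alone was found on either strand in 7.23% of 32841 RefSeq promoter windows of 250 bases, and GCAAC followed by TGATTGG after 25 or 26 bases in 10 of them (0.0304%). A pair of GAAA repeats with 2 bases between them, as bound by IRF factors, was on either strand in 2.98% of windows. None of these 3 patterns was in the windows of Cd274, Pdcd1lg2 or Cd80, which says only that these letters are not there. Windows were found for 5 of the 7 genes. H2-Ab1 (17:34263227-34269418), H2-Aa (17:34282744-34287823) and H2-Eb1 (17:34305867-34316674) lie side by side in the MHC, Cd274 (19:29362107-29388095) and Pdcd1lg2 (19:29410919-29472927) are neighbours on chromosome 19 and Cd80 is at 16:38457430-38495958.

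The class II chain genes were close to absent from both blood conditions and present in the joint and the lung. H2-Eb1 had no UMI in healthy blood, 1 UMI in 1 arthritic blood cell (0.371 CPM), 433 UMIs in 223 joint cells (42.1 CPM, interval 38.2 to 46.2), 21 UMIs in 15 lung cells (15.9 CPM) and 4 UMIs in 4 peritoneal cells (4.24 CPM). H2-Aa had 1 UMI in each blood condition (0.889 and 0.371 CPM), 180 UMIs in 90 joint cells (17.5 CPM, 15.0 to 20.2), 45 UMIs in 12 lung cells (34.1 CPM, 24.8 to 45.6) and 1 UMI in the peritoneum (1.06 CPM). H2-Ab1 had no UMI in either blood condition, 157 UMIs in 105 joint cells (15.3 CPM), 23 UMIs in 13 lung cells (17.4 CPM) and 3 UMIs in 3 peritoneal cells (3.18 CPM). The level was thus highest in the joint for H2-Eb1 and in the lung for H2-Aa, and of the 3 genes the levels of these 2 sites had overlapping intervals only for H2-Ab1. The shares of cells with H2-Aa were close, with 90 of 2857 joint and 12 of 380 lung cells. Its higher level in the lung lay in more UMIs per cell that held any. A count of 0 cells, read as at most 3 cells of the total here and below, allows a UMI in up to 0.589% of healthy and 0.369% of arthritic blood cells.

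Summed over the 3 H2 genes, a UMI was found in 353 joint cells (12.4%, 11.2 to 13.6), 31 lung cells (8.16%, 5.61 to 11.4), 8 peritoneal cells (2.74%, 1.19 to 5.33), 2 arthritic blood cells (0.246%) and 1 healthy blood cell (0.196%). All 5 conditions went through the same droplet reaction, and the part of free RNA in these shares was not tested. The summed level was 74.8 CPM in the joint and 67.4 CPM in the lung, with overlapping intervals (69.6 to 80.3 and 54.1 to 82.9). It was 8.49 CPM in the peritoneum, 0.743 in arthritic blood and 0.889 in healthy blood. With every cell thinned to 1000 UMIs and shallower cells left out (155 of 509, 140 of 814, 123 of 2857, 94 of 380 and 61 of 292), the shares were 0%, 0.148%, 6.26%, 6.64% and 0.433%, with joint and lung close to each other at equal depth.

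H2-Aa transcripts were concentrated in few cells. The top 1% of cells held 63.3% of the H2-Aa UMIs in the joint and 71.1% in the lung, and without these cells the levels were 6.48 and 9.98 CPM. Of the joint cells with H2-Eb1, 134 held 1 UMI and 47 held 2, and of those with H2-Ab1, 77 held 1 and 17 held 2. A joint cell held up to 20 H2 UMIs and a lung cell up to 17, whereas each of the 8 peritoneal cells held 1.

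**Figure D1:**
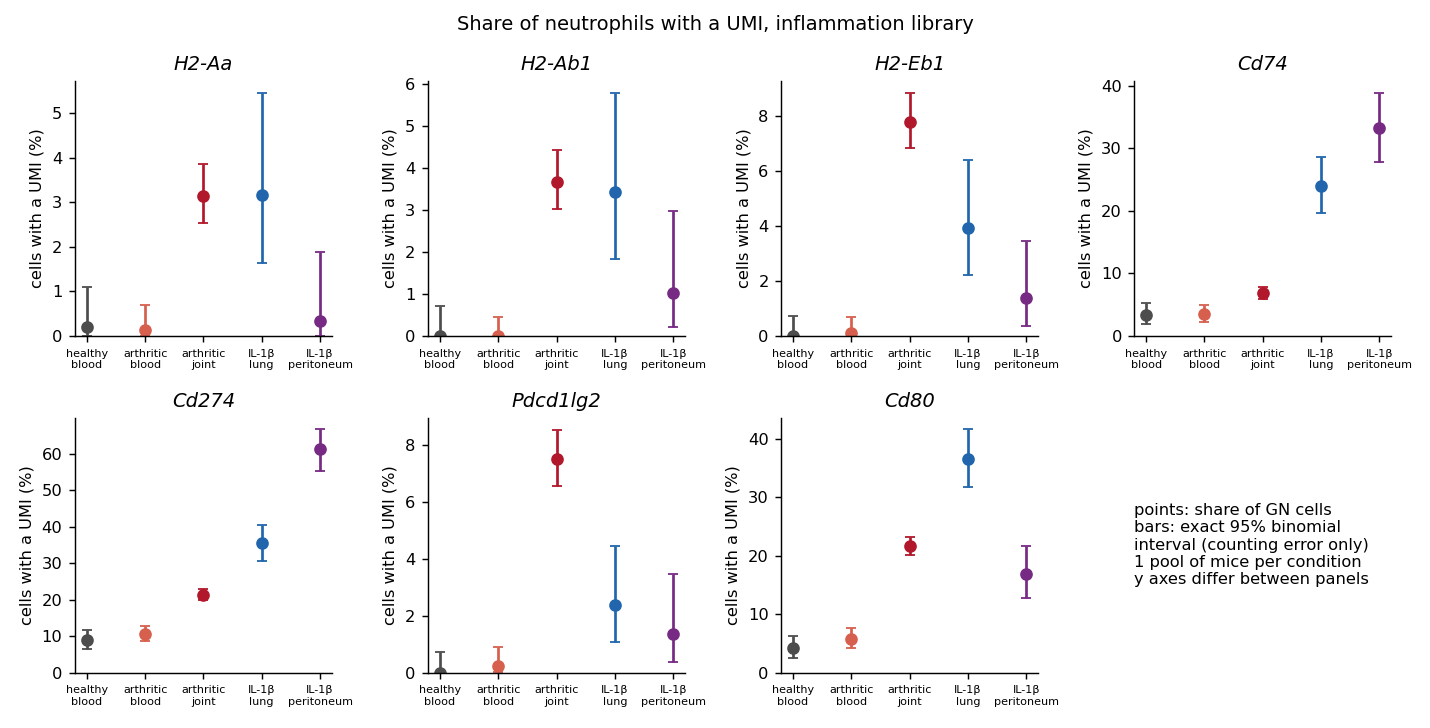
Share of GN cells with a UMI of each of the 7 genes (y axis, percent, with its own range in each panel) in the 5 conditions of the inflammation library (x axis); bars are exact 95% binomial intervals. H2-Eb1 and Pdcd1lg2 stand highest in the joint (7.81% and 7.49%), Cd74 and Cd274 in the peritoneum (33.2% and 61.3%), and Cd80 in the lung (36.6%).

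Cd74 (18:60803849-60812652) did not follow the chain genes. It was in 17 healthy blood cells (3.34%, 15.1 CPM), 28 arthritic blood cells (3.44%, 10.8 CPM), 196 joint cells (6.86%, 22.6 CPM), 91 lung cells (23.9%, 146 CPM) and 97 peritoneal cells (33.2%, 412 CPM). Its order was peritoneum, lung, joint and then blood, and the 2 blood shares did not differ beyond their intervals (1.96% to 5.29% in healthy blood). Cells with many Cd74 UMIs were found at the IL-1β sites, where 26 peritoneal and 6 lung cells held 5 or more and single cells held up to 31 and 13. No joint cell held more than 3, and no blood cell more than 2. At 1000 UMIs per cell the shares were 1.69% and 1.04% in blood, 2.08% in the joint, 13.6% in the lung and 23.8% in the peritoneum, so that the joint stood close to blood.

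The proportions of the class II transcripts therefore differed by site. In the joint there were 0.303 Cd74 UMIs per H2 UMI (0.260 to 0.351), in the lung 2.17 (1.68 to 2.82) and in the peritoneum 48.5 (24.4 to 113). H2-Eb1 made up 56.2% of the H2 UMIs in the joint (52.6 to 59.8), 23.6% in the lung (15.2 to 33.8) and 4 of only 8 UMIs in the peritoneum. B cells of the healthy libraries, with 1.42 to 2.41 Cd74 UMIs per H2 UMI and H2-Eb1 at 22.2% to 26.2%, gave a scale for these ratios. The lung lay within the range of B cells on both measures, while the joint had less Cd74 and more H2-Eb1 than any B-cell sample. For the other H2 genes the lung lay outside that range. There, H2-Aa made up 50.6% of H2 UMIs (30.0% to 38.4% in B cells) and H2-Ab1 25.8% (35.4% to 46.0%). The Cd74 ratio also pools cells, since 10 of the 31 lung cells with an H2 UMI held Cd74. B cells were captured with other chemistry and in other libraries, and the part of either in these differences was not tested.

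**Figure D2:**
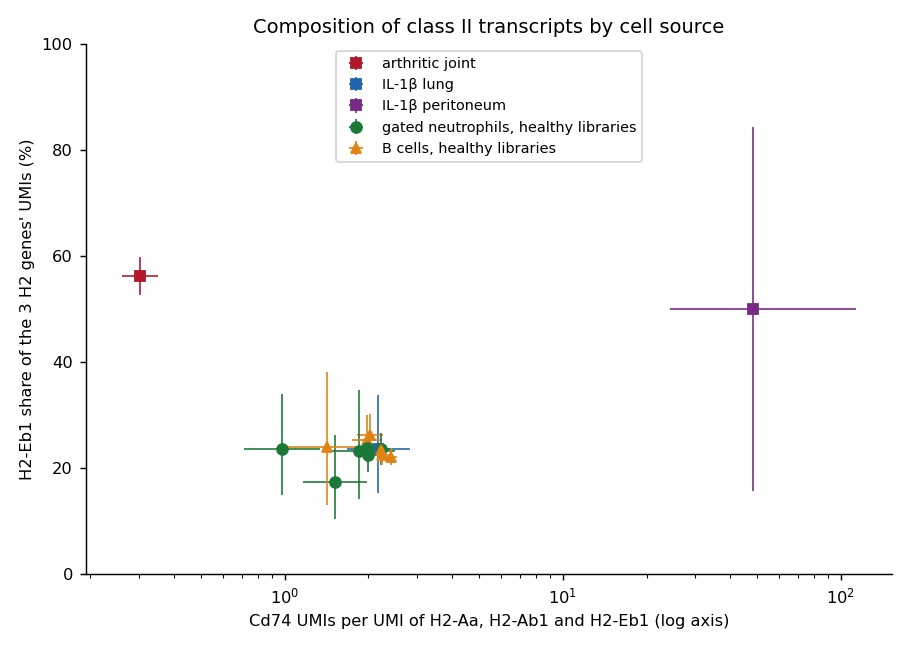
Composition of class II transcripts, with Cd74 UMIs per UMI of the 3 H2 genes on the x axis (log scale) and the percent of H2 UMIs from H2-Eb1 on the y axis; squares are conditions, circles gated neutrophils and triangles B cells of the 6 healthy libraries, and lines are 95% intervals for counting error. The joint lies alone at 0.303 and 56.2%, the lung among the healthy neutrophils and B cells, and the peritoneum at 48.5 with a wide vertical interval.

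Cd274 had the largest range of shares. It was found in 45 healthy blood cells (8.84%, 48.0 CPM), 86 arthritic blood cells (10.6%, 39.0 CPM), 608 joint cells (21.3%, 116 CPM), 135 lung cells (35.5%, 256 CPM) and 179 peritoneal cells (61.3%, 571 CPM). The intervals of the 3 inflamed sites did not overlap (19.8 to 22.8, 30.7 to 40.6 and 55.5 to 66.9), and those of the 2 blood conditions did. At 1000 UMIs per cell the order was kept, with 4.24% and 4.90% in blood, 8.92% in the joint, 20.3% in the lung and 39.4% in the peritoneum.

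Pdcd1lg2, its neighbour on the chromosome, had another order. It had no UMI in healthy blood, 2 UMIs in 2 arthritic blood cells (0.246%, 0.743 CPM), 330 UMIs in 214 joint cells (7.49%, 32.1 CPM), 9 UMIs in 9 lung cells (2.37%, 6.81 CPM) and 6 UMIs in 4 peritoneal cells (1.37%, 6.36 CPM). The joint stood above every other condition, and the intervals of lung and joint did not overlap (1.09 to 4.45 and 6.55 to 8.52). Cd80 was in 21 healthy blood cells (4.13%, 19.6 CPM), 47 arthritic blood cells (5.77%, 18.6 CPM), 619 joint cells (21.7%, 80.2 CPM), 139 lung cells (36.6%, 157 CPM) and 49 peritoneal cells (16.8%, 75.3 CPM). For Cd80 the lung was highest, and joint and peritoneum had close levels.

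**Figure D3:**
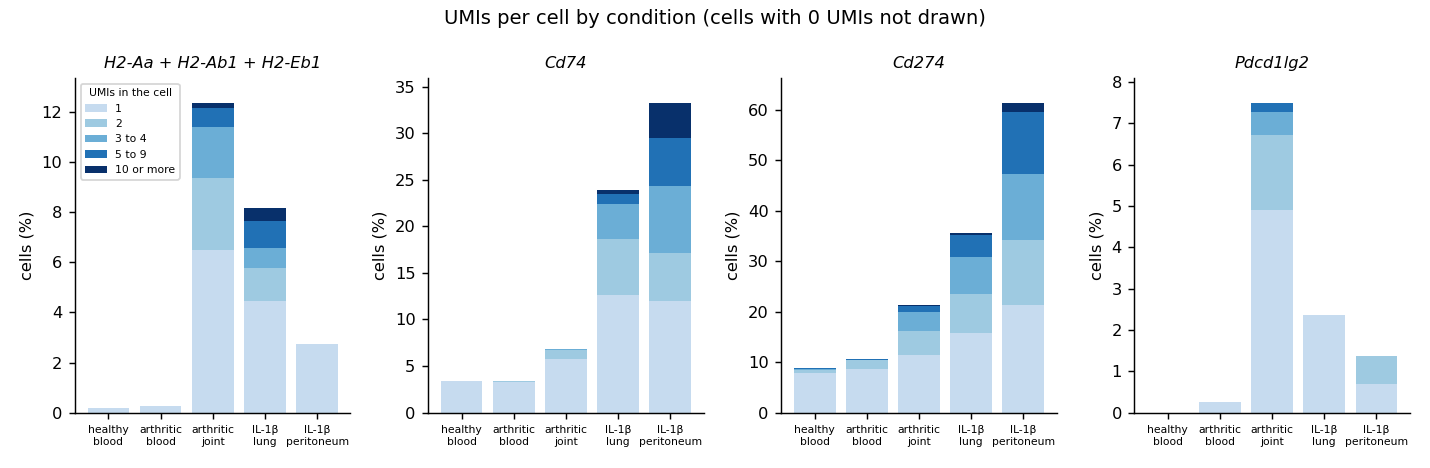
Percent of GN cells (y axis, with its own range in each panel) by the number of UMIs in the cell (shades, from 1 to 10 or more) for the 3 H2 genes summed, Cd74, Cd274 and Pdcd1lg2 in the 5 conditions (x axis). Dark shades, which are cells with 5 or more UMIs, are seen for H2 in joint and lung, for Cd74 in lung and peritoneum (6 and 26 cells), for Cd274 at all 3 inflamed sites (37 cells in the joint, 18 in the lung and 41 in the peritoneum) and for Pdcd1lg2 in the joint (6 cells). Cd274 also had 1 such cell in each blood condition.

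Folds were read against the 2-fold size that described all genes with at least 30 UMIs over the 5 conditions, and a level of 0 was set to a floor of 3 counts. Against healthy blood, 6 of the 7 genes were at least 2-fold higher in the joint, where 10.3% of all genes compared were, 7 of 7 in the lung (10.4% of all genes), 4 of 7 in the peritoneum (9.78%) and 0 of 7 in arthritic blood (2.4%). A gene with at most 3 UMIs on both sides had no fold and could not be called higher or lower. This held for H2-Aa and H2-Ab1 in the peritoneum, and for the 3 H2 genes and Pdcd1lg2 in arthritic blood. The counts of genes describe genes that were chosen for such levels. Thinned to 500 UMIs per cell they were 3 in the joint and 4 in the lung, and in cells with no B-cell, dendritic cell or macrophage marker UMI 6 in the joint and 4 in the lung. In the joint, H2-Eb1 was at least 15.8-fold higher than in healthy blood, Pdcd1lg2 at least 12.0-fold and H2-Ab1 at least 5.72-fold, and H2-Aa was 19.7-fold higher (3.49 to 781) on a single blood UMI. Cd80 was 4.10-fold higher there (2.69 to 6.58), Cd274 2.41-fold (1.84 to 3.23) and Cd74 1.5-fold (0.915 to 2.62), an interval that includes no difference. In the lung, Cd74 was 9.67-fold higher (5.88 to 16.9), Cd80 8.01-fold (5.15 to 13.1) and Cd274 5.33-fold (3.99 to 7.24). In the peritoneum, Cd74 was 27.2-fold higher (16.8 to 47.2), Cd274 11.9-fold (8.98 to 16.0) and Cd80 3.85-fold (2.36 to 6.53). The median fold of all genes was 0.718 in the joint, 0.471 in the lung and 0.460 in the peritoneum. Of all genes compared, 25.9% were at least 2-fold lower than in healthy blood in the joint, 52.5% in the lung and 53.4% in the peritoneum, and none of the 7 genes with a fold there was.

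Arthritic blood and joint were both taken from arthritic mice on day 7, and this pair had a median fold near 1 (0.995). All 7 genes were at least 2-fold higher in the joint, where 15.1% of all genes compared were (9.27% lower). H2-Eb1 was 113-fold higher (20.2 to 4485), H2-Aa 47.1-fold (8.35 to 1870), Pdcd1lg2 43.2-fold (11.9 to 358) and H2-Ab1 at least 13.7-fold. Cd80 was 4.32-fold higher (3.25 to 5.87), Cd274 2.97-fold (2.43 to 3.66) and Cd74 2.1-fold (1.43 to 3.21). Markers of other cells moved too. The 12 monocyte or macrophage markers summed to 302 CPM in the joint and 336 in arthritic blood, but Fcgr1, C1qb and Cx3cr1 were at least 2-fold higher in the joint, with Fcgr1 in 45 joint cells and 1 arthritic blood cell and C1qb in 23 and 1. Of 6 eosinophil markers, Siglecf was at 23 against 7.80 CPM, and the granule protein genes Prg2 and Epx were at 0. In joint cells with no B-cell, dendritic cell or macrophage marker UMI, H2-Eb1 was at 49.1 CPM. In the peritoneum the monocyte or macrophage markers summed to 389 CPM, against 283 in healthy blood, with Adgre1 at 157 against 44.4, Csf1r at 109 against 166, and Fcgr1 and C1qb in 1 cell each. The part of such cells in the levels of the 7 genes was not tested further.

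Lung and peritoneum had the same dose of IL-1β and the same time, and split the genes. H2-Aa was 32.1-fold higher in the lung (5.48 to 1296), H2-Ab1 5.47-fold (1.65 to 28.5), H2-Eb1 3.75-fold (1.26 to 15.0) and Cd80 2.08-fold. Of all genes compared, 13.8% were at least 2-fold higher in the lung. Cd74 was 2.82-fold and Cd274 2.23-fold lower in the lung than in the peritoneum, where 11.1% of genes were at least 2-fold lower, and Pdcd1lg2 was at a ratio of 1.07. Against the lung, the joint had 2.65-fold more H2-Eb1 (1.71 to 4.32) and 4.71-fold more Pdcd1lg2 (2.45 to 10.4), where 32.7% of genes were at least 2-fold higher, and 6.45-fold less Cd74 and 2.21-fold less Cd274, where 7.07% were at least 2-fold lower. Against the peritoneum, the joint had 9.91-fold more H2-Eb1 (3.84 to 36.5) and 5.04-fold more Pdcd1lg2 (2.29 to 13.8), where 33% of genes were at least 2-fold higher, and 18.2-fold less Cd74 and 4.92-fold less Cd274, where 7.74% were lower.

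The deposited ImmGen class of a cell was assigned from all its genes, these included, and is used only to describe. In the joint, 2260 cells had the class of arthritic synovial fluid neutrophils (GN.Arth.SynF), and 157 of them (6.95%) had 2 or more H2 UMIs. Of the 255 joint cells classed as blood neutrophils (GN.Bl), 0 did, and Pdcd1lg2 was in 1.96% of them against 8.01% of the synovial class. Joint cells classed as thioglycollate peritoneal neutrophils (GN.Thio.PC, 245 cells) had 3.67% with 2 or more H2 UMIs and the highest joint shares of Cd274 (30.2%) and Pdcd1lg2 (10.6%) among the 3 largest classes. All 14 lung cells with 2 or more H2 UMIs were among the 275 of GN.Arth.SynF. In the peritoneum the 2 largest classes (163 and 101 cells) were close, with Cd274 in 65.6% of GN.Thio.PC and 65.3% of GN.Arth.SynF cells and Cd74 in 33.1% and 38.6%, whereas Cd274 was in 26.3% of the 19 GN.Bl cells and 11.1% of the 9 GN.UrAc.PC cells.

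The H2 genes were found in the same joint cells. H2-Aa and H2-Eb1 shared 28 cells, where the product of their shares within 3 depth classes of cells gave 7.09, H2-Ab1 and H2-Eb1 shared 28 against 8.46, and H2-Aa and H2-Ab1 shared 13 against 3.36. H2-Eb1 had a UMI in 31.1% of the joint cells with H2-Aa and in 7.05% of those without. In the clean cells, which had no UMI of a B-cell, dendritic cell or macrophage marker, H2-Aa and H2-Eb1 shared 9 cells against 3.01. At this depth most cells still showed 1 gene alone. Of the 353 joint cells with an H2 UMI, 292 had 1 of the 3 genes, 57 had 2 and 4 had all 3, and 171 had only H2-Eb1. In the lung, H2-Aa and H2-Eb1 shared 5 cells against 0.674.

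Cd274 and Pdcd1lg2 formed the largest excess among the other pairs, with 116 joint cells against 46.5. Cd274 was in 54.2% of the joint cells with Pdcd1lg2 and in 18.6% of those without, and at 1000 UMIs per cell the pair shared 23 cells against 6.98. H2-Eb1 overlapped with Pdcd1lg2 in 36 cells (17.1 by the product), with Cd274 in 72 (48.4) and with Cd74 in 28 (15.3). Cd80 went the other way with Cd274, with 109 shared cells against 136. It was in 17.9% of the joint cells with Cd274 (15.0 to 21.2) and in 22.7% of those without (21.0 to 24.5), and these intervals just overlap, and it shared 55 cells with H2-Eb1 against 50.1. At the IL-1β sites, Cd74 and Cd274 shared 65 peritoneal cells against 61.3 and 38 lung cells against 36.3, close to the product of their shares. All pairs are read from 1 library, and the cells of a condition share their pool.

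**Figure D4:**
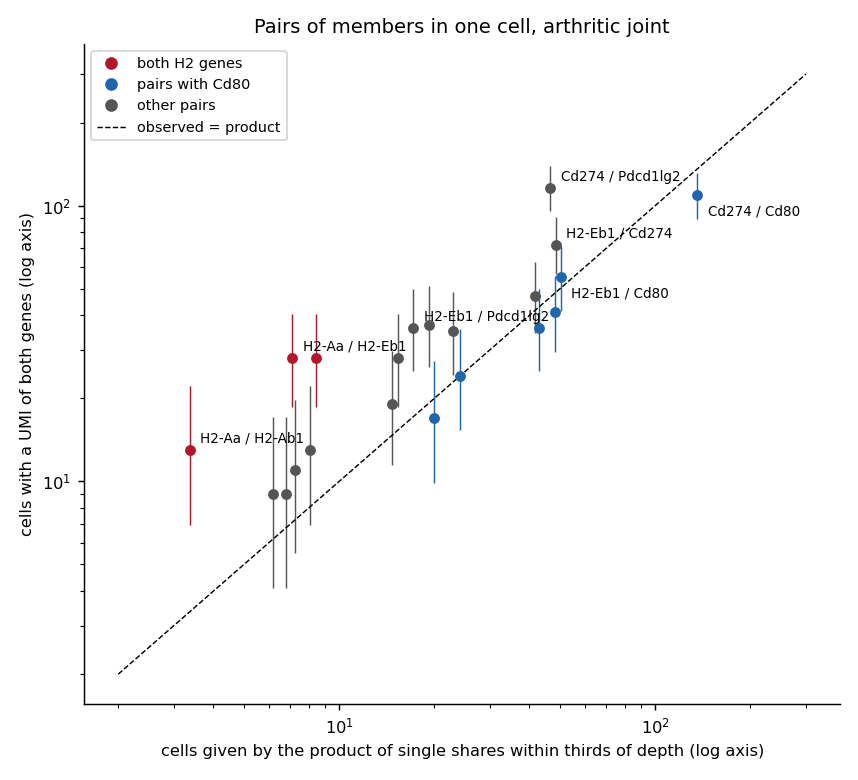
Joint cells with a UMI of both genes of a pair (y axis, log scale) against the number given by the product of their single shares within 3 depth classes (x axis, log scale); lines are exact 95% Poisson intervals and the dashed line marks equality. Pairs of H2 genes (red) and Cd274 with Pdcd1lg2 lie above the line, and Cd274 with Cd80 (blue, 109 against 136) lies below it.

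Cells with 2 or more H2 UMIs are called class II positive. There were 167 in the joint (5.85%, 5.01 to 6.77), 14 in the lung (3.68%, 2.03 to 6.10) and 0 in the 3 other conditions, which allows up to 0.589% in healthy blood, 0.369% in arthritic blood and 1.03% in the peritoneum. In the joint, 82 of the 1294 clean cells were positive (6.34%), and in the lung 7 of 205 (3.41%). Depth was alike in the positive and the other 2690 joint cells, with medians of 3611 and 3529 UMIs and 1134 and 1133 genes, and 5 positive cells lay above the 99th percentile of genes per cell. All 15 neutrophil markers had a UMI in the positive cells, although their summed level was lower (130787 against 181951 CPM), and 17 of the 167 had less than 3% of UMIs from S100a8 and S100a9. Of the 12 B-cell markers, only Ighm and Ighd had a UMI in them (66.6 CPM for the list against 50.7 in the other cells), and Cd79a, Cd79b and Ms4a1 were among the 10 at 0. The 10 dendritic cell markers summed to 1.55 CPM against 1.76, with 1 of 10 detected. The 12 monocyte or macrophage markers summed to 208 CPM against 308, with 9 of 12 detected and Ccr2 and C1qb among those at 0. Over all joint cells, Ly6c2 (164 CPM, in 627 cells) and Csf1r (80.4 CPM, in 656 cells) gave most of this list's counts. Both were also found in healthy blood (66.7 and 166 CPM). The part of macrophage RNA in the positive cells was not tested.

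Before thinning, Cd274, Pdcd1lg2 and Cd74 had larger shares in class II positive than in other joint cells, and Cd80 did not. Cd274 was in 35.9% of positive cells (28.7 to 43.7) and 20.4% of the others, Pdcd1lg2 in 18.0% (12.5 to 24.6) and 6.84%, and Cd74 in 14.4% (9.43 to 20.6) and 6.39%. Cd86, the partner of CD80 as a CD28 ligand, was in 14.4% and 7.55%. Cd80 was in 19.8% and 21.8%, with overlapping intervals. In the clean cells the shares were similar, with Cd274 in 35.4% and 18.3% and Pdcd1lg2 in 19.5% and 6.52%. At 1000 UMIs per cell only 31 joint cells were positive, and Cd274 was in 6 of them (19.4%, 7.45 to 37.5) against 8.81% of the others, Cd74 in 1 (3.23%) against 2.07% and Pdcd1lg2 in 0 against 2.85%. With 1 H2 UMI or more at that depth (171 cells), Pdcd1lg2 was in 6.43% against 2.58%, Cd274 in 14.0% against 8.58% and Cd74 in 3 cells (1.75%, 0.363 to 5.04) against 2.11%. In the 14 positive lung cells, Cd74 was in 6 cells (42.9%, 17.7 to 71.1) against 23.2% of the others, and Cd274 in 35.7% against 35.5%. In these 14 cells the neutrophil markers were at 0.64 times the level of the other lung cells, and the eosinophil markers at 65.1 against 8.73 CPM (ratio 7.45, 1.73 to 25.1), from 4 UMIs in 3 cells with Prg2 and Epx at 0. The part of other cells in the lung result was not tested.

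Among 3088 genes with at least 20 UMIs in the positive joint cells, whose median ratio to the other cells was 1.04, the highest ratio of levels was that of Atp6v0d2, a subunit of the vacuolar proton pump (43.4 against 4.87 CPM, ratio 8.90, 5.37 to 14.5). Next came Lmna, which encodes lamin A (5.15, 3.78 to 6.92), Gas2l3 (4.98), Snx8 (4.31) and Gstm1, a glutathione transferase (3.67). Slc31a1, a copper transporter (3.54), Nceh1 (3.51), Ccl2, a monocyte chemoattractant (153 against 43.8 CPM, 3.50), Mreg (3.43) and Srebf2, a regulator of cholesterol synthesis (3.43), completed the leading 10. The interferon-γ list summed to 1400 CPM in positive and 1749 in other cells (ratio 0.80, 0.75 to 0.86), with Irf1 at a ratio of 0.594, while 98.2% and 94.3% of cells held a UMI of the list. The cells were split by H2 UMIs from the same libraries, so these ratios describe and do not test.

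Joint cells with a Cd274 UMI (608 of 2857) had other leading genes. Gbp5 (ratio 7.17, 4.41 to 11.9) and Gbp3 (6.52), which encode interferon-induced GTPases, led with Plekhg1 (6.90), Gas2l3 (5.61), Trim30c (5.58), Hyal2 (5.40), Pdcd1lg2 (5.31, 4.24 to 6.68), Nceh1 (4.67), A930007I19Rik (4.60) and Mreg (4.51). The interferon-γ list was at 2398 against 1533 CPM in them (1.56), where it had been lower in class II positive cells, although 60 cells belonged to both groups. Gas2l3, Mreg and Nceh1 were among the leading 10 of both. The H2 genes stood at ratios of 2.70 (H2-Aa), 2.1 (H2-Eb1) and 1.91 (H2-Ab1), Cd74 at 1.09 and Cd80 at 0.729. The B-cell list was at 69.6 against 46.5 CPM, and its part in these ratios was not tested.

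In the wider class II pathway, Ciita and the genes of peptide exchange gave few or no counts in the 5 conditions. Ctsl (2656 UMIs) and Ctss (1092) gave more than any of the 3 H2 genes (at most 459). Ciita, which encodes the transactivator, had no UMI in any of the 4852 cells, which allows a UMI in up to 0.0618% of cells (3 of 4852). H2-DMa, H2-DMb1 and H2-DMb2, which encode the peptide exchange factor, and H2-Oa and H2-Ob, its inhibitor, had 4, 5, 7, 8 and 8 UMIs in all. H2-Ea, the pseudogene of the I-E α chain (17:34341952-34344645), was not among the symbols of the tables. Of 17 listed genes, 7 had a fold in the joint against healthy blood, with 2 at least 2-fold higher (Ctsl and Lgmn), 1 lower (Rfxank) and a median of 0.628. Of all genes compared there, 10.3% were at least 2-fold higher and 25.9% lower. Ctsl, a cathepsin that cuts invariant chain, was at 24.9 and 28.2 CPM in healthy and arthritic blood, 232 in the joint, 116 in the lung and 13.8 in the peritoneum. Ctss, the cathepsin that does so in B cells and dendritic cells, was at 43.6, 31.6, 84.9, 39.4 and 34.0 CPM in the same order. Lgmn, an endosomal protease, was at 0, 1.86, 23, 4.54 and 2.12 CPM. Rfx5, a subunit of the RFX complex, was higher in lung and peritoneum (3.56, 1.49, 2.23, 9.08 and 11.7 CPM), whereas Rfxap was lower there (7.57 and 6.36 CPM) than in healthy blood (30.2 CPM) and the joint (18.5 CPM).

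Of 17 other costimulatory and coinhibitory genes, 6 had enough UMIs for a fold in the joint, where 2 were at least 2-fold higher than in healthy blood (Cd86 and Cd48) and 0 lower. The shares over all genes there were 10.3% higher and 25.9% lower. Cd86 was at 11.6 and 19.3 CPM in blood, 27.4 in the joint, 12.9 in the lung and 3.18 in the peritoneum. Icosl, the ligand of ICOS, was at 32.0, 16.0, 31.8, 50.7 and 98.6 CPM, and Vsir, which encodes the coinhibitory VISTA, at 451, 360, 289, 68.1 and 108 CPM. Lgals9, which encodes galectin-9, was at 67.6, 84.3, 119, 51.5 and 62.6 CPM. Tnfsf9, the ligand of 4-1BB, was at 17.0 CPM in the peritoneum and under 5 CPM elsewhere, and Cd40 had 8 UMIs in all. Pdcd1, Ctla4 and Cd28, which encode receptors of these ligands, had none.

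The interferon-γ list held 18 genes with a fold in the joint, of which 5 were at least 2-fold higher than in healthy blood (Gbp2, Gbp3, Gbp5, Irgm1 and Cxcl10) and 1 lower (Irf1). In the lung 5 of 17 were higher and 7 lower, and in the peritoneum 6 and 3 of 17. Of all genes compared, 10.3% were higher and 25.9% lower in the joint, 10.4% and 52.5% in the lung, and 9.78% and 53.4% in the peritoneum. Cxcl10, a chemokine for T cells, was at 8.00 and 4.08 CPM in blood, 88.9 in the joint, 70.4 in the lung and 554 in the peritoneum, and Gbp5 at 1.78, 3.34, 7.77, 25.7 and 76.4 CPM, both with the peritoneum highest as for Cd274. Of 8 genes of NF-κB subunits and feedback regulators, 3 were at least 2-fold higher in the joint, 7 in the lung and 8 in the peritoneum, with median folds of 1.58, 6.53 and 10.6. Nfkbia, the NF-κB inhibitor, was at 280, 246, 700, 2656 and 4308 CPM. None of 5 MHC class I genes was at least 2-fold higher at any of the 3 sites, and H2-D1 and B2m ranged from 2490 to 3280 and from 1399 to 2511 CPM.

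In the healthy libraries, cells with at least 3% of UMIs from S100a8 and S100a9 were taken as neutrophils, without cell type labels, which kept 12755 of 16907 cells. Gated cells had low depth. Medians in run 1 and run 2 were 1355 and 775 UMIs for spleen, 809.5 and 826 for blood, and 2698.5 and 2133.5 for bone marrow. Cells with 2 or more B-cell markers were few in most libraries (6 to 282), but 1569 of 4353 in spleen run 2 (36.0%). Spleen run 2 therefore stands apart, and its gated cells held 994 CPM of B-cell markers against 22.7 in spleen run 1. Blood held 24.3 CPM of them in run 1 and 346 in run 2, and bone marrow 4.47 and 196. These sums are not the same quantity in both runs, since the run 1 tables list 5 to 7 of the 12 markers, Ighm and Ighd in none, and the run 2 tables all 12. Of cell barcodes, at most 36 were shared by a pair of libraries.

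Within each run, the class II level of gated cells had the same order over the 3 tissues as the summed B-cell markers listed there. In run 1 the 3 H2 genes together were at 23.1 CPM for bone marrow, 27.2 for spleen and 62.5 for blood, and in run 2 at 71.9, 884 and 220. Cd74 was at 34.8, 50.2 and 61 CPM in run 1 and 143, 1753 and 487 in run 2, again higher in each tissue of run 2. In spleen run 2, 2630 of the 3430 Cd74 UMIs and 1261 of the 1729 H2 UMIs of gated cells lay in cells that also held a B-cell marker UMI, and the library's B cells were at 26089 CPM of Cd74. There were 1.76 Cd74 UMIs per B-cell marker UMI in gated cells (1.67 to 1.87) and 1.57 in B cells (1.55 to 1.58). This ratio varied by library. Bone marrow run 1 had 7.79 in gated cells (4.82 to 13.3) against 0.201 in B cells. Bone marrow run 2 had 0.730 against 0.672, with overlapping intervals. Gated cells stood below B cells in spleen run 1 (2.21 against 3.61) and blood run 2 (1.41 against 2.13). Blood run 1 had 2.52 against 3.36, with overlapping intervals. Over the 6 libraries, gated cells held 0.976 to 2.22 Cd74 UMIs per H2 UMI and 17.3% to 23.8% of H2 UMIs from H2-Eb1, so that each lay above the joint in the first measure and below it in the second. Spleen over bone marrow, the H2 sum had a fold of 1.18 (0.857 to 1.61) in run 1 and 12.3 (11.2 to 13.5) in run 2. In gated cells with no B-cell marker UMI, the H2 level was 422 CPM in spleen run 2 and 16.5 in spleen run 1.

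Cd274 and Cd80 were lowest in bone marrow. In run 1, Cd274 had 0 UMIs in gated bone marrow cells, 16 in blood (11.8 CPM) and 13 in spleen (4.84 CPM), and in run 2 it had 4 (0.439 CPM), 48 (13.8 CPM) and 30 (15.3 CPM). Cd80 had 0, 20 (14.7 CPM) and 14 UMIs (5.21 CPM) in run 1 and 26 (2.86 CPM), 56 (16.1 CPM) and 36 (18.4 CPM) in run 2, in the same order. In both runs, the bone marrow was lowest for both genes. The B cells of spleen run 2 held Cd274 at 9.27 CPM, below the 15.3 of gated cells there and above the 4.84 of gated spleen cells of run 1, and Cd80 at 1.78 CPM. Pdcd1lg2 had 3 UMIs in gated blood cells and 2 in gated spleen cells of run 2 and none elsewhere, while the B cells of spleen run 2 held 37 (13.2 CPM).

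**Figure D5:**
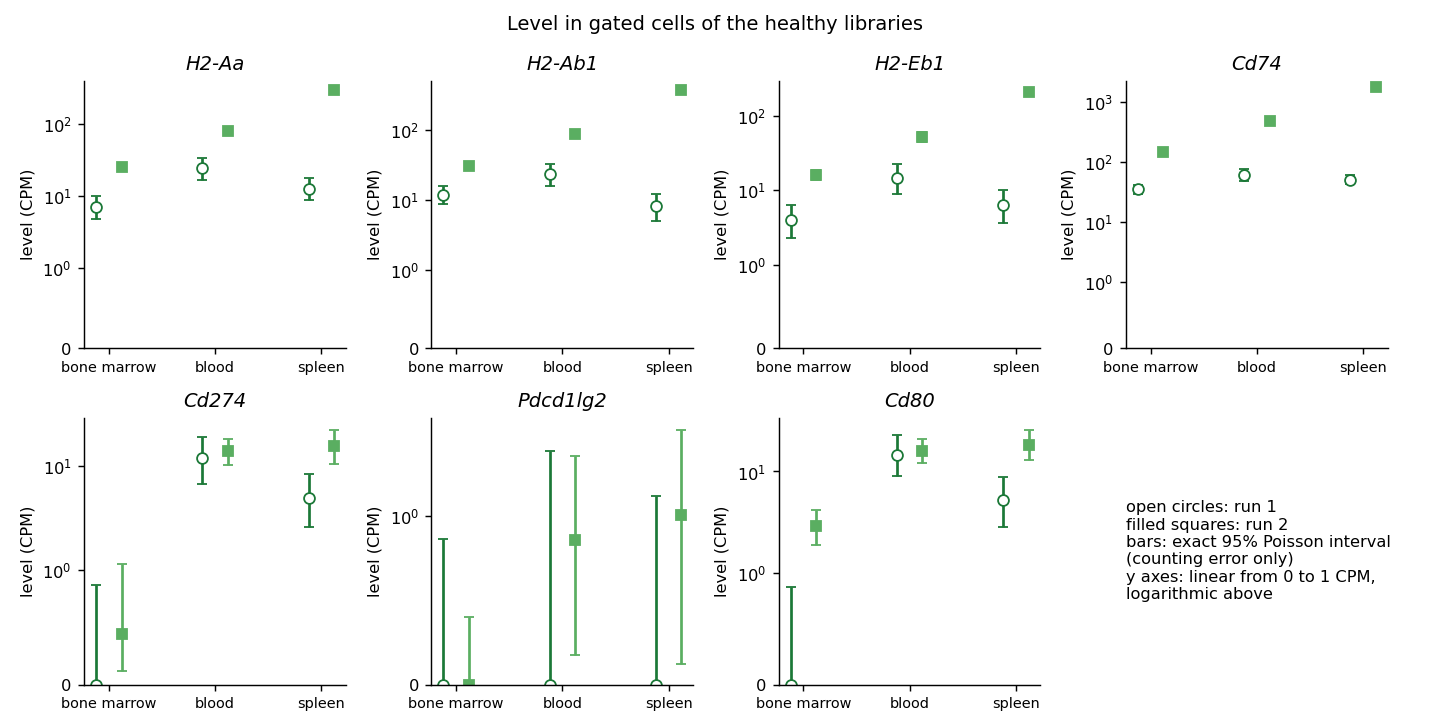
Level of each gene in gated cells (y axis, CPM, linear from 0 to 1 and log above, with its own range in each panel) by tissue (x axis) for run 1 (open circles) and run 2 (filled squares); bars are exact 95% Poisson intervals. The H2 genes and Cd74 are higher in run 2 in each tissue, most in spleen, while Cd274 and Cd80 are lowest in bone marrow in both runs.

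For the tests between tissues, the counts of gated cells were summed per library and fitted in edgeR with the run as a block, over 7809 genes. Pdcd1lg2 had too few counts to be tested. Blood over bone marrow, 2 of 6 genes passed an adjusted p of 0.05, where 11.7% of all genes were called higher and 9.94% lower. Cd274 rose by a log2 fold of 5.20 (SE 0.76, adjusted p = 0.00625, edgeR) and Cd80 by 3.06 (SE 0.73, adjusted p = 0.0270, edgeR), each higher in blood in both runs. Without the block these adjusted p were 0.0614 and 0.187 in edgeR, and without blood replicate 1 or 2 those of Cd274 were 0.0829 and 0.0859 and those of Cd80 0.180 and 0.111. Spleen over bone marrow, 1 of 6 genes passed, where 2.24% of all genes were called higher and 0.512% lower. Cd274 rose by 4.82 (SE 0.77, adjusted p = 0.0277, edgeR), a call that was lost without the block (adjusted p = 0.283), without blood replicate 1 (0.0954) or 2 (0.147), without spleen replicate 2 (0.2) and with a gate of 10% of UMIs (0.0766). Cd80 had a log2 fold of 2.62 (SE 0.74, adjusted p = 0.135, edgeR) that did not pass, but it was called in 3 of 13 alternatives, without bone marrow replicate 1 (log2 fold 1.97, adjusted p = 0.00765) or 2 (7.43, 6.39e-06) and without spleen replicate 1 (2.67, 0.00992).

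The class II genes did not pass in either comparison with bone marrow in the fit of all 6 libraries. Spleen over bone marrow, log2 folds were 2.37 for H2-Aa (SE 0.55, adjusted p = 0.0829, edgeR), 2.54 for H2-Eb1 (SE 0.61, 0.0908), 1.96 for H2-Ab1 (SE 0.78, 0.270) and 2.04 for Cd74 (SE 0.57, 0.132). DESeq2 called 3 of them, with adjusted p of 0.00142 for H2-Aa, 0.00649 for H2-Eb1 and 0.000336 for Cd74. Over 13 alternatives H2-Aa was called in 5, H2-Eb1 in 4, Cd74 in 3 and H2-Ab1 in 2, with all 4 called without spleen replicate 1 (log2 folds of 2.96 to 3.30) and without bone marrow replicate 1 (2.72 to 2.89). Blood over bone marrow, each of the 4 was called in 3 of 13, without bone marrow replicate 1, spleen replicate 1 or spleen replicate 2. Spleen against blood, 0 of 6 genes passed, where edgeR called 0% of all genes higher and 0.0512% lower, 801 genes had an unadjusted p under 0.05, and DESeq2 called 29 genes. A fit without 1 library, here and above, leaves only 1 library for that tissue, so that the other tissues alone give the spread. Without spleen replicate 1, the log2 folds of the 4 class II genes in spleen against blood were 1.72 to 2.06. The spleen library left was that of run 2, whose gated cells held 994 CPM of B-cell markers. With all 6 libraries, the log2 fold of Cd274 in spleen against blood was −0.38 (SE 0.56, adjusted p = 0.831, edgeR). The runs differed, with 0.411-fold (0.182 to 0.912) in run 1 and 1.11-fold (0.680 to 1.79) in run 2.

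Of the 12 other class II pathway genes tested, 2 rose in both comparisons with bone marrow, Ctss (log2 fold 2.50 in blood, adjusted p = 0.00417, and 1.89 in spleen, adjusted p = 0.0306, edgeR) and March1, which encodes a ligase that removes class II from the surface (1.72, adjusted p = 0.00631, and 1.29, adjusted p = 0.0477, edgeR). None of 5 costimulatory genes passed. Of 19 interferon-γ genes, 11 rose in blood and 3 in spleen, Gbp2 among them (2.52, adjusted p = 0.00260, and 2.57, adjusted p = 0.0133, edgeR). Of 8 genes of NF-κB subunits and feedback regulators, 3 rose in blood and 0 in spleen, and 4 of 9 B-cell markers rose in spleen (Cd79a, Ighd, Iglc2 and Ms4a1). Ighd and Iglc2 had no UMI in gated cells of any run 1 library, so their calls, that of Ighd in blood included, rest on run 2. In blood, where Cd274 and Cd80 were called, Ighd and Ms4a1 rose and Vpreb3 fell among the 9 B-cell markers, Cd3g rose of 2 T-cell markers and Siglecf of 2 eosinophil markers. Of 8 monocyte or macrophage markers, Adgre1 and Csf1r rose in blood and C1qa, C1qb and Ly6c2 fell. Of 15 neutrophil markers, 3 rose there (Csf3r, Cxcr2 and Il1b) and 7 fell, the granule genes Camp, Ltf, Ngp, Lcn2 and Mmp8 among them. None of 4 erythroid markers tested passed in edgeR (1 had an unadjusted p under 0.05), with a median log2 fold of 3.71, and all 6 summed to 704 and 30348 CPM in gated blood cells of run 1 and run 2, against 912 and 303 in bone marrow. The part of these in the calls of Cd274 and Cd80 was not tested.

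Over the 5 conditions and 6 healthy libraries, 5522 genes were ranked by Pearson correlation with Cd274 on the scale of log2(CPM + 10), as a description of 11 points, of which 5 come from 1 library and 6 from libraries of another chemistry, and which differ in depth. Tet2, a DNA demethylase (0.99), Mefv, which encodes pyrin (0.99), Dusp16 (0.99), Nfkbiz (0.98) and Rela, a subunit of NF-κB (0.98), were most alike. Tet2 was at 94.2 and 67.2 CPM in healthy and arthritic blood of the inflammation library, 188 in the joint, 866 in the lung and 1067 in the peritoneum. For the summed H2 genes the highest values were those of Sub1 (0.91), Cox5b (0.83), Atp6v1g1 (0.81), Clic1 (0.80) and Sf3b4 (0.78). B-cell marker UMIs were found in the gated cells of all 6 healthy libraries. The part of B-cell RNA in these points of the H2 sum was not tested.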

How the data were processed

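The values were raw UMI counts for each gene symbol in each cell, deposited by the authors as made with Cell Ranger on mm10 (annotation not given in the sources used here), before their cell filters. Run 1 tables list only genes with a count. The authors removed hashtag doublets, and no doublet caller was run here. Where the study text and the deposited cell table give lung and peritoneum in different order by cell number, the table was used. The deposited table also gave the ImmGen class of each cell.

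The 7 genes and all lists were chosen with earlier results of these data known. Named genes were these 7, up to 6 genes of each list by total UMIs, the 10 genes leading in positive cells and the 5 most alike in level; exceptions are said to be chosen after their values were seen. Calculations used Python 3.11.15, NumPy 2.4.6, SciPy 1.17.1 and pandas 2.3.3, and R 4.3.3. Gated counts were summed per library and tested in edgeR 4.0.16 (quasi-likelihood, TMM, filterByExpr, Benjamini-Hochberg), with DESeq2 1.42.0 as an alternative. The edgeR step was tested on simulated data. The run was a block because its tissues came from the same mice, and deviations from tissue means correlated at 0.587, 0.640 and 0.542 over 7809 genes. A library is a pool of mice, and the block takes out the difference between the 2 runs, which also differ in age. The p-values of the main fit thus measure how unevenly the tissue differences repeat in the 2 runs. The Cd74 and H2-Ab1 promoters were not analysed here, and some genes of the lists are not reported here.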

Additional observations from a re-analysis of the deposited data

Results flagged for a closer look

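The 4 cells of the inflammation library without a neutrophil class were in no comparison, and they held the 3 H2 genes at 823 CPM (12 UMIs in 2 cells) and 17 UMIs of Cd74, above the limit of 206 CPM that a count of 0 would allow and above every condition. Their ImmGen classes were those of B cells in 3 (B.FrF.BM, B1a.PC and B1a.Sp) and of a lung macrophage in 1 (MF.Lu), and the B1a.PC cell held 11 of the 12 H2 UMIs.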

How the results depend on the processing

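With 2 libraries per tissue and few UMIs of Cd274, Cd80 and Pdcd1lg2, and 1 pool per inflamed condition, small differences could not be seen, and shares move with depth by construction. Genes called in spleen against bone marrow (215) fell to 0 without the replicate block (663 at an unadjusted p under 0.05) and to 117 with limits on mitochondrial UMIs and genes, and ranged from 0 to 1250 when libraries were left out, with 0 without blood replicate 1 or 2. In blood against bone marrow (1693) they were 164 without the replicate block, 1093 by DESeq2 and 0 to 2626 with libraries left out (0 without blood replicate 2). In spleen against blood (4) they were 0 without the block (456 at an unadjusted p under 0.05), 18 without a filter on low counts, 19 with a gate of 10%, 29 by DESeq2 and 0 to 245 with libraries left out. The block changed the calls of Cd274 and Cd80 given above and no other call of the 7 genes.

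Thinned to 500 UMIs, 3 genes were at least 2-fold higher in the joint and 4 in the lung, where 4 were also left in cells with no B-cell, dendritic cell or macrophage marker UMI. Class II positive joint cells were 12.4% with at least 1 UMI, 2.98% with at least 3 and 1.13% thinned to 1000 UMIs, and lung cells 8.16% with at least 1 and 1.75% thinned. Cells with at least 3% S100a8 and S100a9, a setting chosen after seeing the data, gave 5.73% in the joint and 4.81% in the lung. In gated spleen cells, Cd74 per H2 UMI was 1.33 in run 1 without B-marker cells (1.85 before), and 1.86 with a gate of 10% and 1.71 without B-marker cells in run 2 (1.98 before). The H2 level there was 18.0 and 16.5 CPM in run 1 and 382 and 422 CPM in run 2 under the same 2 settings.

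Leaving out libraries in turn changed the sign of some log2 folds that had not passed the test. In spleen against blood they ranged from −0.51 to 1.72 for H2-Aa, −1.34 to 2.06 for H2-Ab1, −0.76 to 1.86 for H2-Eb1 and −0.20 to 1.90 for Cd74 (each lowest without spleen replicate 2), and from −1.06 to 0.084 for Cd274 and −1.53 to 0.30 for Cd80 (each highest without blood replicate 1). H2-Ab1 ranged from −0.31 to 3.11 in spleen against bone marrow and from −0.21 to 1.85 in blood against bone marrow. With no B-marker cells, Cd74 was at −0.018 in blood against bone marrow. The cause was not tested.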

Other observations

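The genes in this paragraph were chosen after their values were seen. The 214 joint cells with a Pdcd1lg2 UMI had Hyal2 (ratio 8.55 to the other joint cells), Atp6v0d2 (6.54), Ccl2 (6.23), Gstm1 (5.34) and Prdx1 (4.93) among their leading genes, and shared 5 of the leading 10 with class II positive cells (Atp6v0d2, Ccl2, Gas2l3, Gstm1 and Nceh1) and 3 with Cd274-positive cells (Gas2l3, Hyal2 and Nceh1). Gbp2 was at a ratio of 0.556 in them, and at 3.63 in cells with Cd274. In the peritoneum, the 179 cells with Cd274 had ratios of 41.6 (11.3 to 346) for Saa3, an acute-phase protein, 17.6 for Il23a, a cytokine subunit, and 9.18 (6.31 to 13.9) for Cxcl10, and of 1.64 (1.30 to 2.09) for Cd74. In the lung, cells with Cd274 had Saa3 at 6.10. Lung cells with Cd74 had H2-Aa at 5.61 (2.90 to 11.4), and the 14 class II positive lung cells were led by Cd69 (7.29), an activation marker, Il1a (4.49) and Prdm1 (3.89), beside eosinophil markers at a ratio of 7.45 (1.73 to 25.1) from 4 UMIs.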
